A study of Mus musculus with 6 samples.

Results

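The genes described here are the 6 peroxiredoxins (Prdx1 to Prdx6), the superoxide dismutases Sod1 and Sod2, the glutathione peroxidase Gpx4 and the thioredoxin Txn1. They were chosen by symbol and by no rule on their values, though with earlier results of these data known. All 10 were present among 12331 gene rows. Expression was given as RPKM, a read count divided by the length of the gene model and by the library's alignments. The series compared tagmentation with sonication for turning cDNA of single-cell amount into a sequencing library. The tagmentation group had 3 libraries, in which hyperactive Tn5 transposase cut the cDNA and tagged it with adaptors in one reaction (100 ng of cDNA, 55 °C for 5 min, then 13 PCR cycles). The sonication group also had 3 libraries, fragmented acoustically and ligated to adaptors. All 6 came from the established line E14tg2a, mouse embryonic stem cells grown with serum and LIF, a cytokine that keeps them undifferentiated. In each, 10 pg of total RNA was reverse transcribed from an oligo(dT) primer and amplified by 20 PCR cycles. The growth medium of all libraries contained beta-mercaptoethanol, a reducing agent. The replicates were technical and numbered 1 to 3 in both groups, so p-values here speak of library-to-library spread only, and no separate cultures were compared.

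Peroxiredoxins reduce hydrogen peroxide with a reactive cysteine, which thioredoxin then returns to its reduced state with electrons from NADPH. Superoxide dismutases make the hydrogen peroxide that these enzymes remove, and Gpx4 reduces lipid peroxides inside membranes with glutathione. In mouse embryonic stem cells such enzymes limit oxidative damage to DNA and membranes, and in many cell types loss of Gpx4 leads to ferroptosis, a death by lipid peroxidation.

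The catalytic codons show how alike the family members are, which bears on whether reads can be assigned to one of them. The stretches below were read from GENCODE M21 transcripts (GRCm38), 5′ to 3′ in the coding strand. In the peroxiredoxins the capitals mark the codon of the cysteine that attacks peroxide. In Gpx4 they mark the in-frame TGA read as selenocysteine, and in Txn1 the cysteine codons of the active site.
Prdx1: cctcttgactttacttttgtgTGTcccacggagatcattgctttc
Prdx2: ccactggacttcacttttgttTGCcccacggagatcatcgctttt
Prdx3: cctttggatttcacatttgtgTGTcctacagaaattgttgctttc
Prdx4: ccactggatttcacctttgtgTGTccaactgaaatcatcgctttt
Prdx5: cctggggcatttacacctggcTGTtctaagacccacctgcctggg
Prdx6: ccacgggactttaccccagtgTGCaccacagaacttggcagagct
Prdx6b: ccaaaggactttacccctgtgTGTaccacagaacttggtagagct
Gpx4: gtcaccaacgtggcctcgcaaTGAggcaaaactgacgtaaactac
Txn1: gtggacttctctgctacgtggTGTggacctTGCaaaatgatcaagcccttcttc
Over these 45 bases Prdx1 and Prdx2 were identical at 38, and Prdx2 and Prdx4 also at 38, while Prdx5 shared 19 to 21 with any other member. Across the whole coding sequences the longest run shared by a pair of the 6 members was 23 bases, between Prdx2 and Prdx4. The copy Prdx6b, shown for comparison, shared a run of 53 bases with Prdx6. It is listed in the files under its older symbol Prdx6-ps1, with 5.37 to 8.30 RPKM over the libraries. RefSeq also lists pseudogenes of Prdx1, Prdx2 and Gpx4, and how the authors treated reads with several matches is not given in the sources used here.

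All 10 genes stood at 1 RPKM or more in each of the 6 libraries, and Sod1, the cytosolic copper and zinc enzyme, was the most abundant of them with a mean of 1032 RPKM. Then followed Txn1 with 418 RPKM, Prdx1 with 338 RPKM, Gpx4 with 306 RPKM, Prdx2 with 288 RPKM and Prdx6 with 166 RPKM. Below these were Prdx4 with 68.0 RPKM, Sod2 with 47.4 RPKM, Prdx5 with 43.8 RPKM and Prdx3 with 25.8 RPKM. In this order 2 neighbouring pairs did not overlap over the 6 libraries, Sod1 above Txn1 and Prdx6 above Prdx4, and all other neighbours overlapped. The leading Sod1 and Txn1 are mainly cytosolic proteins. The lowest were the mitochondrial Prdx3 and Sod2, Prdx5, which is found in several compartments, and Prdx4 of the endoplasmic reticulum. Whether level goes with compartment was not tested. Per the labels' protocols the RNA was a bulk preparation, so fewer expressing cells and less RNA per cell cannot be told apart.

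Prdx1 and Prdx2, the abundant cytosolic 2-Cys peroxiredoxins, had opposite patterns over the replicate numbers, and each pattern was seen with both methods. Prdx1 had 840, 53.5 and 101 RPKM in tagmentation libraries 1 to 3, against 803, 109 and 120 RPKM in sonication libraries 1 to 3. Both libraries of number 1 were far above the other 4. Prdx2 had 74.0, 484 and 331 RPKM in tagmentation libraries 1 to 3, against 110, 451 and 278 RPKM in sonication libraries 1 to 3. Here both libraries of number 1 were the lowest. The ratio of Prdx1 to Prdx2, both per length, was 11.3 in tagmentation library 1 and 7.31 in sonication library 1. In number 2 it was 0.110 after tagmentation and 0.242 after sonication, and in number 3 it was 0.304 after tagmentation and 0.432 after sonication. Which of the pair was the more abundant thus depended on the replicate number in both methods. The levels rested on many reads, from 2622 to 34488 for Prdx1 and from 1464 to 15784 for Prdx2. PCR copies are counted among these reads, so the number of cDNA molecules behind them is not known.

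Prdx3, the peroxiredoxin of the mitochondrial matrix, varied most. It had 19.4, 1.30 and 83.7 RPKM in tagmentation libraries 1 to 3, against 16.2, 1.01 and 33.2 RPKM in sonication libraries 1 to 3. The means of the numbers spanned 50.7-fold, with number 2 lowest in both methods. The low values were 65 reads after tagmentation and 32 after sonication, for which counting alone gives a relative SD of 12.4% and 17.7%. Sod2, the manganese superoxide dismutase of the same compartment, was also lowest in number 2. It had 56.8, 15.5 and 80.2 RPKM in tagmentation libraries 1 to 3, against 60.5, 15.2 and 56.0 RPKM in sonication libraries 1 to 3. The ratio of Sod1 to Sod2 was 75.9 in tagmentation library 2 and 82.0 in sonication library 2, and lay between 10.9 and 18.6 in the other 4 libraries.

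Prdx4, the peroxiredoxin of the endoplasmic reticulum, and Prdx5, which is found in mitochondria, peroxisomes and cytosol, varied less. Prdx4 had 63.2, 122 and 48.8 RPKM in tagmentation libraries 1 to 3, against 58.7, 89.8 and 25.1 RPKM in sonication libraries 1 to 3. Prdx5 had 19.0, 62.0 and 39.1 RPKM in tagmentation libraries 1 to 3, against 32.9, 73.8 and 36.2 RPKM in sonication libraries 1 to 3. Both were highest in number 2, where Prdx3 was lowest. Their number means spanned 2.87-fold for Prdx4 and 2.62-fold for Prdx5.

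Prdx6, Sod1, Gpx4 and Txn1 had the smallest spread between numbers. Prdx6, which also has phospholipase activity, had 147, 202 and 221 RPKM in tagmentation libraries 1 to 3, against 157, 146 and 124 RPKM in sonication libraries 1 to 3. Its number means differed by 1.15-fold. Sod1 had 620, 1174 and 1205 RPKM in tagmentation libraries 1 to 3, against 900, 1250 and 1042 RPKM in sonication libraries 1 to 3. Tagmentation library 1 was the lowest, and the rest lay within 900 to 1250 RPKM. Gpx4 had 154, 340 and 320 RPKM in tagmentation libraries 1 to 3, against 276, 398 and 349 RPKM in sonication libraries 1 to 3. Number 1 was the lowest in both methods, as it was for Sod1. Txn1, which hands electrons to the peroxiredoxins, had 528, 424 and 522 RPKM in tagmentation libraries 1 to 3, against 495, 282 and 258 RPKM in sonication libraries 1 to 3. Its tagmentation values lay between 424 and 528 RPKM, and sonication library 1 fell inside that range. The number means spanned 1.72-fold for Gpx4, 1.59-fold for Sod1 and 1.45-fold for Txn1.

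**Figure D1:**
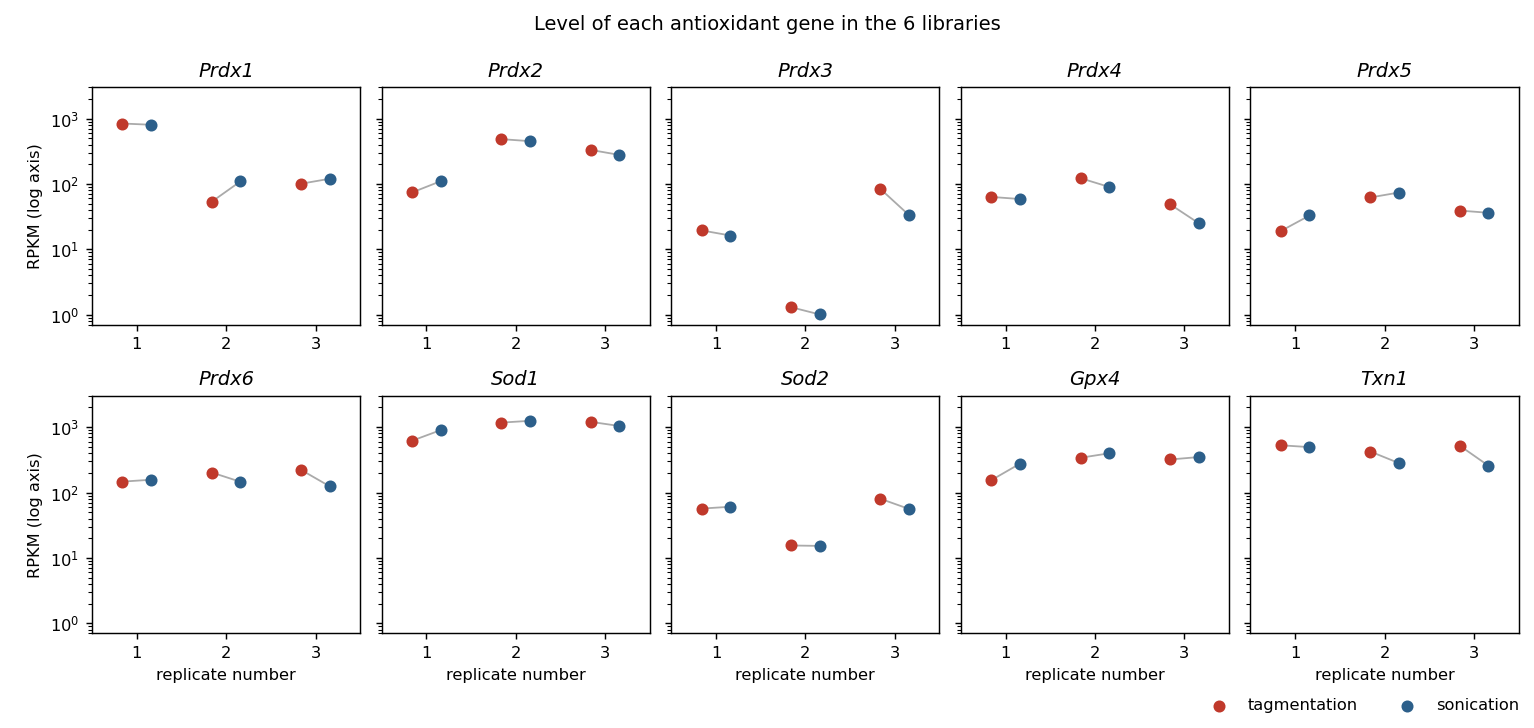
RPKM (log axis) of each of the 10 genes against replicate number, with the tagmentation library left and the sonication library right in each number and a line joining the pair. Numbers differ most for Prdx3 (1.01 to 83.7 RPKM) and Prdx1 (53.5 to 840 RPKM), while in Prdx6 (124 to 221 RPKM) and Txn1 (258 to 528 RPKM) method took a larger share of the sum of squares than number.

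The difference between replicate numbers was tested with limma's F test, with method as a term, over all 6327 genes that reached 1 RPKM in at least 3 libraries. Of the 10 members 6 differed between numbers at a Benjamini-Hochberg adjusted p under 0.05, against 88.1% of all tested genes. They were Prdx1 (adjusted p 7.15e-18), Prdx2 (3.58e-09), Prdx3 (1.35e-27), Prdx4 (2.27e-04), Prdx5 (9.23e-04) and Sod2 (2.60e-08). Gpx4 (adjusted p 0.0623), Sod1 (0.14), Txn1 (0.276) and Prdx6 (0.888) did not pass. Under median ratio scaling Sod1 and Gpx4 also passed, which made 8 (88.9% of all tested genes), and under quantile normalization Sod1, Gpx4 and Txn1, which made 9 (91.3% of all tested genes). The number means of log2(RPKM + 1) differed by 4-fold or more in 4 members, Prdx1, Prdx2, Prdx3 and Sod2, against 58.5% of all tested genes. In this fit limma takes as its error how far the difference between methods varies from number to number. It pools this error almost wholly over genes (210 prior degrees of freedom). Without tagmentation library 2 the count of members fell to 3, as Prdx4, Prdx5 and Sod2 no longer passed, and the share of all tested genes to 68.6%. Without sonication library 2 it was 4, as Prdx4 and Prdx5 no longer passed, against 70.6% of all tested genes.

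The spread between numbers varied with a gene's level, so the members were also set beside the 610 tested genes with a mean of at least 100 RPKM, a level chosen after the values were seen. Of these genes 57.7% differed between numbers and 13.1% by 4-fold or more. Among the members 6 reached that level. Prdx1 and Prdx2 were the 2 of them that differed, both by 4-fold or more. Ordered by the range of number means, Prdx1 was in place 13 of the 610 and Prdx2 in place 48. Gpx4 was in place 364, Sod1 in place 423, Txn1 in place 466 and Prdx6 in place 597. All 4 members under 100 RPKM differed between numbers, as did 91.4% of the tested genes under that level. Over the 10 members together, replicate number took 92.5% of the sum of squares of log2(RPKM + 1) and method 3.94%, beside 94.3% and 2.84% over all tested genes. In Prdx6 and Txn1 method took the larger share, 49.0% against 6.81% for number in Prdx6, and 45.1% against 34.8% in Txn1. The remainder fell to neither. With number as a term, neither gene passed the test between methods (limma adjusted p 0.548 for Prdx6 and 0.331 for Txn1).

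**Figure D2:**
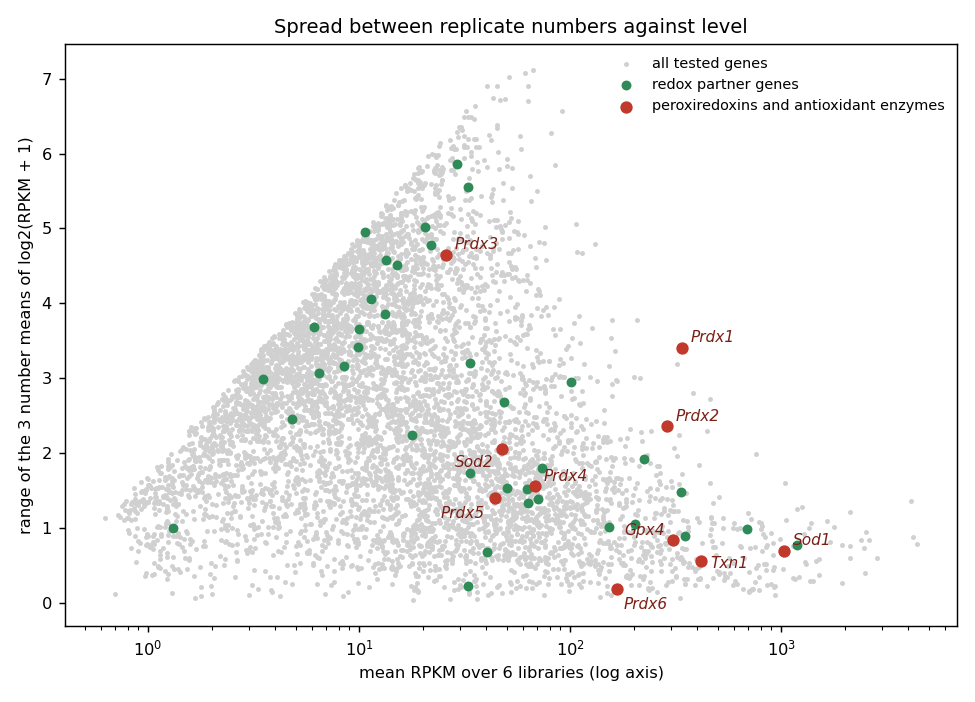
Range of the 3 number means of log2(RPKM + 1) against mean RPKM over the 6 libraries (log axis), for all 6327 tested genes (grey), the redox partner genes (green) and the 10 members (red, named). Prdx1 and Prdx2 lie above most genes of their level, and Prdx6 lies near the lower edge.

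Tagmentation and sonication gave no member a difference that passed the test. Limma on log2(RPKM + 1), with method as the only term, called 0 of the 10 members and 0 of 6327 genes (0%) at the adjusted threshold of 0.05. At an unadjusted p under 0.05 there were 18 genes (0.284%) and 0 members. The tagmentation and sonication values overlapped in all 10 members, while they did not in 2.40% of tested genes. On the log2(RPKM + 1) scale the members had a median fold change (tagmentation over sonication) of 0.038, and all tested genes one of 0.028. Values were above 0 in 5 members and below 0 in 5. Because the libraries of a number deviated together, the replicate number was also fitted as a block. That fit called 208 genes (3.29%) and 0 members, with 1 member, Prdx3, at an unadjusted p under 0.05, against 16.8% of all tested genes.

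Txn1 and Prdx3 had the largest differences in favour of tagmentation. Txn1 averaged 491 ± 58.3 RPKM after tagmentation and 345 ± 130 RPKM after sonication (SD, n = 3 each), a log2 fold change of 0.56. Its 95% interval was -0.26 to 1.38 without the block and -0.029 to 1.16 with it (adjusted p 0.331 in limma). It was higher after tagmentation in 3 of 3 pairs, by 1.07-fold, 1.5-fold and 2.02-fold in numbers 1 to 3. Prdx3 averaged 34.8 ± 43.3 RPKM after tagmentation and 16.8 ± 16.1 RPKM after sonication (SD, n = 3 each), a log2 fold change of 0.58. Its interval was -2.85 to 4.02 without the block and 0.0087 to 1.16 with it (adjusted p 0.288 in limma). It was also higher in 3 of 3 pairs, but by 1.20-fold and 1.29-fold in numbers 1 and 2 and by 2.52-fold in number 3.

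Prdx4 was the third gene that was higher after tagmentation in every pair, and Gpx4 was the only member that was lower in every pair. Prdx4 averaged 78.1 ± 38.9 RPKM after tagmentation and 57.9 ± 32.4 RPKM after sonication, with a log2 fold change of 0.49 (95% interval with the block -0.094 to 1.08). Gpx4 averaged 272 ± 102 RPKM after tagmentation and 341 ± 61.5 RPKM after sonication, with a log2 fold change of -0.39 (95% interval with the block -0.99 to 0.20). The ratio of tagmentation to sonication for Gpx4 was 0.560 in number 1, 0.855 in number 2 and 0.918 in number 3. These 4 members with one direction in 3 of 3 pairs stand against 33.8% of all tested genes with one direction.

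The other members changed sides between pairs. Prdx1 had a log2 fold change of -0.40, most of it from number 2, where tagmentation gave 0.490 times the sonication value. Prdx6 had 0.40, Prdx5 had -0.30, Sod2 had 0.15 (-0.054 under quantile normalization), Sod1 had -0.14 and Prdx2 had -0.070. With the block the 95% intervals of all these values reached no further than -0.99 and 0.99, so that for these 6 members a steady change beyond 2-fold lay outside the interval, on an error that is pooled over genes. Without the block the intervals were wider, from -2.68 to 1.88 for Prdx1. In 9 of 10 members, all but Prdx1, the log2 difference, tagmentation minus sonication, was highest in number 3, against 62.6% of all tested genes. The median difference of the members was -0.092, 0.061 and 0.38 in pairs 1 to 3, beside -0.072, 0.079 and 0.20 for all tested genes. Without number 1 in the blocked fit, 3 members were called higher after tagmentation, against 16.6% of all genes called in either direction. They were Prdx4 (adjusted p 0.0421), Prdx6 (0.0352) and Txn1 (0.0172) in limma's test.

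**Figure D3:**
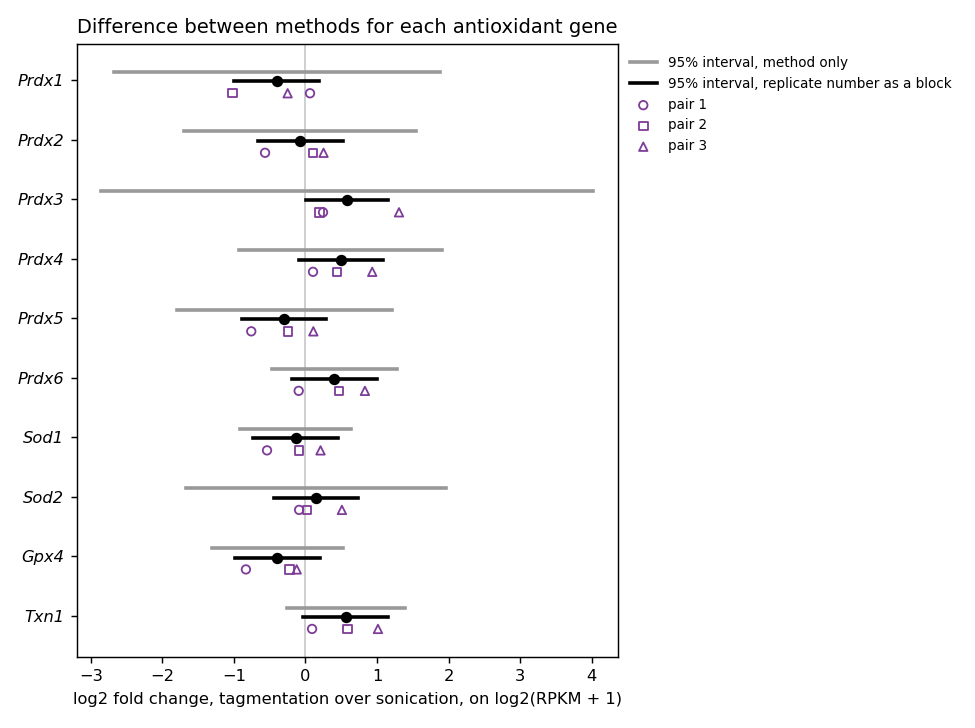
Log2 fold change of tagmentation over sonication on log2(RPKM + 1) for each member (black point), with its 95% interval with the replicate number as a block (black) and without it (grey), and the difference in each of the 3 pairs (open symbols). Intervals without the block all include 0, and with it that of Prdx3 alone excludes 0, at 0.0087 to 1.16 before adjustment.

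Further genes of hydrogen peroxide and thiol metabolism were taken from 8 lists of 50 genes, of which 47 were in the table (Msrb1 under its older symbol Sepx1) and 36 were tested. None was called between methods (0 of 6327 genes called), and with the block none was called either (3.29% of all genes). Their median log2 fold change was 0.013, with 18 above 0 and 18 below 0. With the block 2 of the 36, Txnl1 and Idh1, had an unadjusted p under 0.05, against 16.8% of all tested genes. Catalase (Cat), which breaks down hydrogen peroxide in peroxisomes, was the 1 partner gene whose libraries did not overlap between methods, against 2.40% of tested genes. It had 39.7, 36.3 and 38.8 RPKM in tagmentation libraries 1 to 3, against 31.1, 24.9 and 27.2 RPKM in sonication libraries 1 to 3. Its log2 fold change was 0.46 (SE 0.60, or 0.29 with the block), which did not pass the test (limma adjusted p 1.00, or 0.458 with the block). Like Prdx6, Cat did not pass the test between numbers (limma adjusted p 0.841).

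Between replicate numbers 32 of the 36 partner genes differed, 20 of them by 4-fold or more, against 88.1% and 58.5% of all tested genes. The counts by list were 5 of 5 in the thioredoxin system, 9 of 9 in the glutathione system and 1 of 2 for catalase and Ccs. They were 2 of 2 methionine sulfoxide reductases, 6 of 8 in the Nrf2 axis, 5 of 5 for NADPH supply, 3 of 3 for selenocysteine insertion and 1 of 2 ferritin chains. By mean RPKM over the 6 libraries the highest genes of their lists were Txn2, the mitochondrial thioredoxin, Gpx1, the cytosolic glutathione peroxidase, and Ccs, the copper chaperone of Sod1. Txn2 had 75.9, 333 and 223 RPKM in tagmentation libraries 1 to 3, against 110, 366 and 234 RPKM in sonication libraries 1 to 3. Gpx1 had 170, 555 and 221 RPKM in tagmentation libraries 1 to 3, against 254, 608 and 210 RPKM in sonication libraries 1 to 3. Ccs had 11.3, 97.4 and 27.3 RPKM in tagmentation libraries 1 to 3, against 19.9, 108 and 27.3 RPKM in sonication libraries 1 to 3. All 3 were highest in number 2 in both methods. In the other lists the genes of highest mean were Gsta4, a glutathione transferase, with 208 to 498 RPKM, and Pgd, which makes NADPH in the pentose phosphate pathway, with 101 to 221 RPKM. Msrb2, a methionine sulfoxide reductase, had 1.53 to 38.1 RPKM. Pstk, the kinase that prepares the selenocysteine tRNA, had 0.409 to 51.5 RPKM, and Fth1, the ferritin heavy chain, had 867 to 1686 RPKM. In 3 lists another gene had the higher median. The median was 33.7 RPKM for Cat and 27.3 RPKM for Ccs, 26.3 RPKM for Secisbp2 and 15.7 RPKM for Pstk, and 3.19 RPKM for Msrb1 and 2.04 RPKM for Msrb2.

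Among genes of lower level, some whose products act on each other were highest in different numbers. The 4 genes given here were chosen after their values were seen. Gclc and Gclm encode the catalytic and the modifier subunit of the enzyme that starts glutathione synthesis. Gclc had 2.54, 0.110 and 56.3 RPKM in tagmentation libraries 1 to 3, against 1.16, 0.822 and 19.3 RPKM in sonication libraries 1 to 3. Gclm had 0.421, 81.3 and 39.3 RPKM in tagmentation libraries 1 to 3, against 0.449, 54.6 and 20.8 RPKM in sonication libraries 1 to 3. In number 2 the modifier was at its highest and the catalytic subunit at its lowest, with both methods. Nfe2l2 encodes Nrf2, the transcription factor of the antioxidant response, and Keap1 its cytosolic inhibitor. Nfe2l2 had 92.1, 7.42 and 0.105 RPKM in tagmentation libraries 1 to 3, against 70.0, 4.53 and 0.773 RPKM in sonication libraries 1 to 3. Keap1 had 0.0752, 14.9 and 5.79 RPKM in tagmentation libraries 1 to 3, against 0.156, 12 and 3.92 RPKM in sonication libraries 1 to 3. The transcript of the factor was thus highest in number 1, where that of its inhibitor was lowest. The lowest number of each of these genes was under 1 RPKM with both methods. A range of 4-fold or more between numbers was seen in 58.5% of all tested genes. Any link between the paired genes was not tested.

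**Figure D4:**
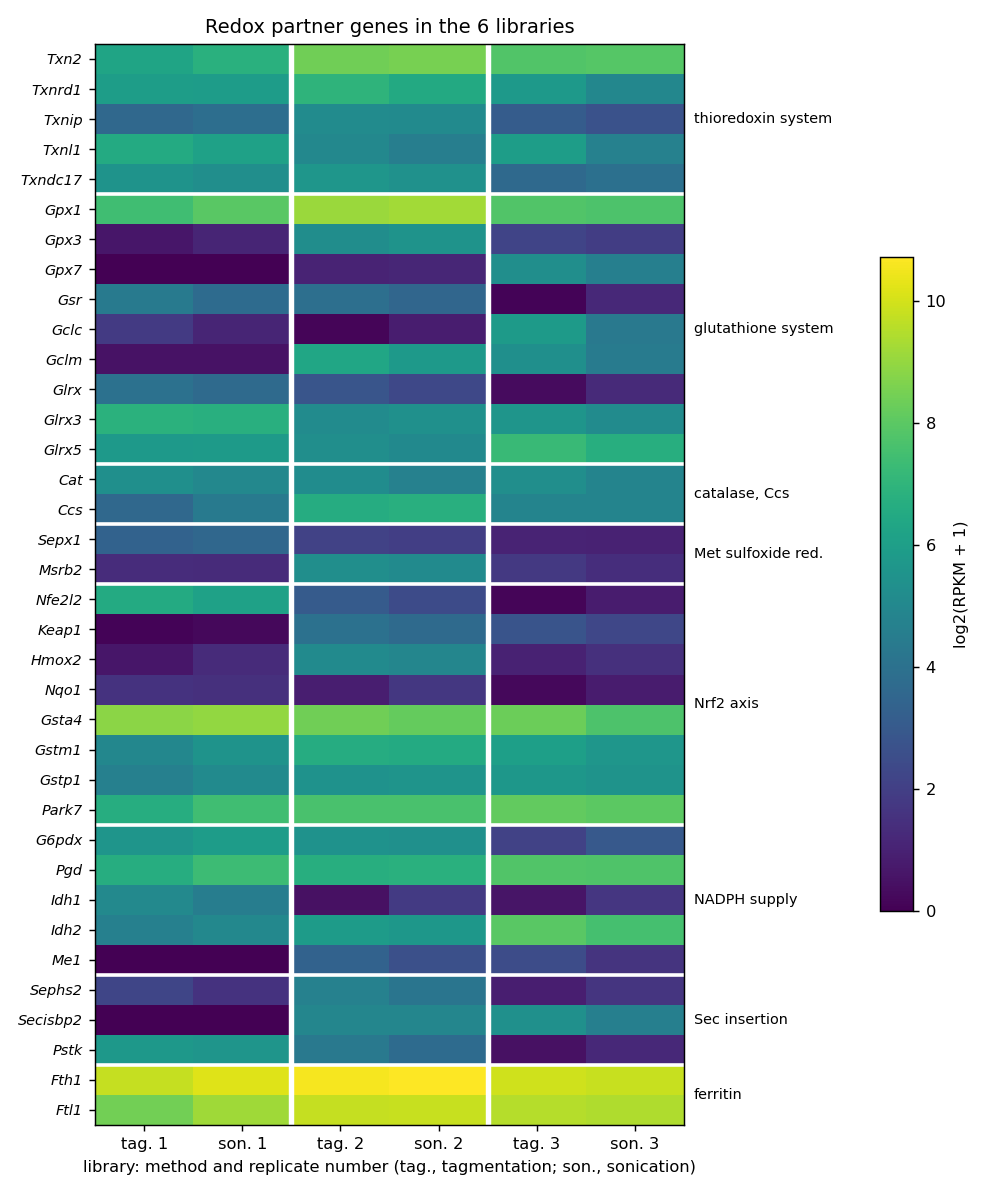
Log2(RPKM + 1) of the 36 tested redox partner genes (rows, grouped by list) in the 6 libraries (columns, the tagmentation library left of the sonication library of the same number; white lines divide numbers and lists). Neighbouring columns of a number look alike, while Gclc, Gclm, Nfe2l2, Keap1 and Secisbp2 change over several log2 units between numbers.

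The genes with patterns most like the member of largest spread and the member of smallest spread were found by the root mean square difference of log2(RPKM + 1) over the 6 libraries, after centring each gene. For Prdx3 they were Egr1 (0.16), BC005537 (0.18) and Eif4enif1 (0.18). For Prdx6 they were the predicted gene Gm15450 (0.058), Naca (0.062) and the predicted gene Gm16378 (0.062). The 6 libraries hold 3 replicate numbers, so that many genes can share a pattern. The 2 predicted genes may split reads with other copies of nearly the same sequence, which makes their values uncertain.

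The libraries had 18852822 to 34681566 alignments. Whole read numbers could be recovered for 9 of the 10 members, Gpx4 being the exception. Apart from Prdx3, these ranged from 275 to 34488 reads a library, at which counting alone gives a relative SD of at most 6.03%. The labels name no molecular identifiers, so PCR copies count as reads and these percentages cover counting error only. Of 5 stem cell markers, 3 were well above 1 RPKM in all libraries, Pou5f1 (91.5 to 260 RPKM), Zfp42 (164 to 444 RPKM) and Dppa5a (455 to 1739 RPKM). Sox2 had 3.79 to 61.6 RPKM and Nanog 0 to 8.39 RPKM. Of 5 fibroblast markers 3 were in the table, and Col1a1 and Col1a2 were under 1 RPKM throughout. The summed level of the 3 was 9.55, 2.57 and 0.0954 RPKM in tagmentation libraries 1 to 3, against 12.1, 2.98 and 0.297 RPKM in sonication libraries 1 to 3. In number 1 all of it was Thy1, as Col1a1 and Col1a2 were at 0 there with both methods. Col1a1 was highest in number 2, with 0.621 RPKM after tagmentation and 0.832 RPKM after sonication. The sum was highest in number 1, as Prdx1 was, and its part in that result was not tested.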

How the data were processed

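The authors deposited RPKM values, 1 column per library, and per the file headers also its number of alignments. Per the submitters' processing notes the build was mm9, and CASAVA 1.7.0 and Partek were used. No aligner or annotation is given in the sources used here.

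Values were tested as log2(RPKM + 1) in genes that reached 1 RPKM in 3 or more libraries, with limma 3.58.1 in R 4.3.3 (lmFit, eBayes with a trend), two-sided, Benjamini-Hochberg adjusted over all genes, threshold 0.05. Fold changes on this scale understate those of low genes. The script was tested on simulated data. Reads were recovered as the shortest gene length that made all 6 values whole within rounding (at most 0.118 reads). With the alignment totals moved by 1 library this gave 0 of the 10 members. No 2 libraries shared a value above 0 in any gene.

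The labels do not say that libraries of a number share a cDNA. Across methods, log2(RPKM + 1) correlated by 0.977, 0.977 and 0.958 within numbers 1 to 3, and by 0.482 to 0.705 between different numbers. After each method's mean was taken off, libraries sharing a number correlated by 0.952, 0.969 and 0.934, and others across methods by at most -0.175. Taking off a mean of 3 libraries itself lowers the values between different numbers. The numbers were taken as pairs. Named were all members and, of the partner genes, those called, those with libraries apart between methods and the one of highest mean RPKM in each list. Gclc, Gclm, Nfe2l2, Keap1, Secisbp2, Msrb1 and the partner genes named at an unadjusted p or without number 1 were chosen after their values were seen. For the members with the largest and smallest range, the 3 most alike genes were also named. Members and lists were chosen with earlier results of these data known. Coding sequences came from GENCODE M21 (GRCm38), which is not the build of the files, so no coordinates are given.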

Additional observations from a re-analysis of the deposited data

How the results depend on the processing

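The members' calls between methods stayed at 0 in 18 of 19 alternatives, among them 2 scalings, pseudocounts of 0.1 and 5, no filter, a minimum mean of 10 RPKM and each library left out. The exception was the replicate block without number 1, with 3 members and 5 partner genes called, against 16.6% of all tested genes. The partner genes were Txnrd1, Txnl1, Gclm and Me1, higher after tagmentation, and Idh1, lower (log2 fold change -1.22). The cause of this exception was not tested. Over the left-out libraries and numbers, 0 to 3 members and 0 to 5 partner genes were called. The count over all genes was 0 without the block, 208 with it, 64 with the block and median ratio scaling, 8 with the block and a pseudocount of 0.1 and 2 with the block and a correction for GC content. It was 0 to 1051 over the left-out libraries and numbers. In 12 of the 19 alternatives no gene at all was called, so a count of 0 there says nothing particular to members or partner genes. The block changed no other call of a member or partner gene. The members' median log2 fold change was -0.31 to 0.48 with libraries left out. Members with libraries apart between methods were 1 with quantile normalization (2.92% of all tested genes) and 0 to 4 with libraries or numbers left out (4.74% to 22.3%). The count differing between numbers was 3 to 8 with libraries left out (68.6% to 92.7% of all tested genes), 8 with median ratio scaling (88.9%) and 9 with quantile normalization (91.3%). With quantile normalization Sod2 turned to -0.054. With the block, Prdx2 turned to 0.18 and Sod1 to 0.060 without number 1, and Sod2 to -0.035 without number 3.

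With libraries or numbers left out, log2 fold changes spanned -1.57 to 0.53 for Prdx1, -0.63 to 0.74 for Prdx2, -0.63 to 1.98 for Prdx3, -0.0063 to 0.89 for Prdx4, -0.68 to 0.14 for Prdx5, -0.31 to 0.17 for Sod1 and -0.48 to 0.83 for Sod2. Prdx6 (0.19 to 0.65), Gpx4 (-0.60 to -0.029) and Txn1 (0.34 to 0.86) kept their direction. Of the members with recovered reads, Prdx3 had the fewest, 32 and 65 in number 2, and so the largest counting error.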
